A study of Mus musculus with 20 samples.

Results

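The matrix metalloproteinases Mmp2, Mmp3, Mmp9, Mmp10, Mmp11, Mmp12, Mmp13, Mmp14, Mmp19 and Mmp23 were followed across mouse embryonic fibroblast cultures given mouse serum. They were taken as every non-control probe whose accession mapped by RefSeq to one of these genes, which gave 12 probes for 10 genes, out of 17178 genes with a RefSeq symbol on the array. Mmp9 and Mmp14 have 2 probes each, and the brighter one of each pair represents its gene. All 10 genes passed the filter on dim probes, Mmp12 only through its 20-day groups.

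RNA of fibroblasts grown out of mouse embryos was hybridised to Agilent 1-colour arrays, 1 sample per array, after 24 hours of culture; the serum came from female mice of the inbred strain C3H/HeN. The 4 groups of 5 arrays were 4 Gy serum of the 10-day set, control serum (0 Gy) of the 10-day set, 8 Gy serum of the 20-day set and control serum (0 Gy) of the 20-day set. Every group, controls included, had fibroblasts of an unstated strain and serum of the same mouse strain and sex. The labels write the irradiation regime as L/MDR and expand neither that nor what the days count. Whether replicates had their own culture or donor mouse is not stated, and a p-value here reflects array-to-array spread that could be technical. Dose and day change together between the sets.

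Between 56.8% and 67.2% of probes were well above background on each array, and 0 spots were marked as saturated. The number of arrays limits the precision. All 15 fibroblast markers were well above background on all 20 arrays. Of 19 macrophage markers on the array, 17 were well above background on all arrays of both 10-day groups and Spi1, the transcription factor that defines the lineage, on none of them. Their summed signal, in multiples of the array's 75th percentile, was 83.5 to 93.4 with 8 Gy serum and 90.4 to 110 with control serum of the 20-day set, against 3.83 to 4.54 with 4 Gy serum and 2.87 to 4.23 with control serum of the 10-day set. The summed signal of 8 endothelial markers was between 0.158 and 0.521, and that of 9 epithelial markers between 1.60 and 2.74, over all arrays. The 10-day and 20-day arrays were on different slides and scanned on 2 different days, 1 per set, so set, slide and scan day cannot be told apart.

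Matrix metalloproteinases are zinc-dependent endopeptidases that cut collagens, elastin, proteoglycans and other proteins outside the cell. They are made as inactive precursors, held by a cysteine of the prodomain on the catalytic zinc, and become active when other proteases remove the prodomain; the TIMP proteins inhibit the active enzymes. Fibroblasts and macrophages make partly different sets of them, and several of their genes are induced by AP-1 transcription factors downstream of cytokines and growth factors.

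The 4 members Mmp13, Mmp12, Mmp3 and Mmp10 lie in a row of metalloproteinase genes on chromosome 9. Among protein-coding genes the order is Mmp13, Mmp12, Mmp1b, Mmp3, Mmp1a, Mmp10. The RefSeq promoter table (GRCm38.p6) held 9 windows for 7 members, the other members without one being Mmp2, Mmp9 and Mmp19. The 250 bases before each listed start were searched for the AP-1 element TGAGTCA on both strands. The same bases were searched for the TATA box letters TATAAA, also on both strands, and these strings share no end letters by which they could overlap. The AP-1 letters were in 4 of the 9 windows, 1 each of Mmp13, Mmp12, Mmp3 and Mmp10, against 4.46% of 32851 windows of the same length. TATAAA was in 3 of the 9, those of Mmp13, Mmp3 and Mmp10, against 12.4% of all windows. The windows of Mmp11 on chromosome 10, Mmp14 on chromosome 14 and Mmp23 on chromosome 4 held neither string. The 2 windows of Mmp23 overlap and the 4 genes with the AP-1 letters lie in the same row, so the windows are not independent draws. A match is a description of letters, not of a bound site. The 4 windows with the AP-1 letters are shown for those letters alone, and their part in the signal of the members was not tested. All 4 are on the + strand, 5′ to 3′, at chr9:7272264-7272513 (Mmp13), chr9:7347124-7347373 (Mmp12, the downstream of its 2 listed starts), chr9:7445572-7445821 (Mmp3) and chr9:7502092-7502341 (Mmp10), with the matched letters in capitals.
Mmp13: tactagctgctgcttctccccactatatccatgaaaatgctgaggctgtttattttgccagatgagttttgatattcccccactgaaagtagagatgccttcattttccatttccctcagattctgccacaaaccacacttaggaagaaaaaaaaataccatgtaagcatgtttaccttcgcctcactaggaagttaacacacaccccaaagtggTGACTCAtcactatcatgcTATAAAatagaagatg
Mmp12: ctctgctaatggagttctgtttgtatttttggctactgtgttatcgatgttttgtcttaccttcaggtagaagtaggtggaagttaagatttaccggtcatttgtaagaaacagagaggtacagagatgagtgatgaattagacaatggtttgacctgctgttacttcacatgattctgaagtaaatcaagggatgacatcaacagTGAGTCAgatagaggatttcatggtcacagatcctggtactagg
Mmp3: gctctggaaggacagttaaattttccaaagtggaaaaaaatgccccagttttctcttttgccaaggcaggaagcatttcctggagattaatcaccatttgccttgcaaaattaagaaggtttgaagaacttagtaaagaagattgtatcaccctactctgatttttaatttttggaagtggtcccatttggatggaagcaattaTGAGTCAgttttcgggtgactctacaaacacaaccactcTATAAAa
Mmp10: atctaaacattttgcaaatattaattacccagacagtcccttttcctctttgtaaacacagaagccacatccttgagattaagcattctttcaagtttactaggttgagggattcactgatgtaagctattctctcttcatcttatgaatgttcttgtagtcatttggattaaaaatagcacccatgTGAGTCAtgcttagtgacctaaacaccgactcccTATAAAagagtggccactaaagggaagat
Counted back from the listed start as -1, the AP-1 letters begin at -35 in Mmp13, where they read on the other strand, at -44 in Mmp12, at -46 in Mmp3 and at -63 in Mmp10.

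Every signal is given on the log2 scale after subtracting the 75th percentile of its own array, so 0 is the level of that percentile. All differences are log2 differences of group means with their standard error. Levels of different probes cannot be set against each other. Tests were two-sided with limma over all 20 arrays, with Benjamini-Hochberg adjustment over all 20226 genes tested (unnamed probes included) and a threshold of 0.05. In bulk RNA, fewer cells of a type and less RNA per cell cannot be told apart.

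Serum of mice irradiated at 8 Gy (20-day set) went with higher Mmp2, a gelatinase that cuts denatured and basement membrane collagen, and higher Mmp13, the collagenase that rodents use for fibrillar collagen. It went with lower Mmp11, a stromelysin with little activity on intact matrix that is activated inside the cell by furin. The brighter Mmp14 probe was lower and the dimmer one higher. These 4 of 10 members passed the test, 2 higher and 2 lower. Of all genes tested, 46.0% passed, 17.3% higher and 28.8% lower, so the members' share is near that background. The controls were on slides 4 and 5 and the 8 Gy arrays on slides 6 and 7. No slide held both kinds of serum, so serum and slide cannot be told apart here, and a slide block cannot separate them. With slide as a random block the same 4 members passed, with adjusted p-values of 0.000588 for Mmp2, 0.026 for Mmp13, 0.04 for Mmp11 and 0.0145 for the brighter Mmp14 probe. The median difference was 0.48 over the 10 members and -0.09 over all genes.

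Mmp13 measured -0.87, 0.01, -0.21, 0.18 and -0.14 with 8 Gy serum, against -1.44, -2.08, -0.90, -2.69 and -1.57 with control serum. The lowest 8 Gy array lay just above the highest control array, so the groups did not overlap. The difference was 1.53 ± 0.36, 2.88-fold, with an adjusted p of 0.00212 by limma. Mmp13 was the member with the largest difference in this comparison.

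Mmp2 measured 2.79, 2.92, 3.18, 3.16 and 2.84 with 8 Gy serum, against 2.09, 2.29, 2.06, 1.45 and 1.92 with control serum. All 5 arrays with 8 Gy serum were above all 5 controls, and control replicate 4 was the lowest. The difference was 1.02 ± 0.15, with an adjusted p of 2.58e-05 by limma.

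Mmp11 measured 2.42, 2.31, 2.29, 2.16 and 2.38 with 8 Gy serum, against 3.36, 2.71, 2.66, 2.66 and 2.62 with control serum. The groups did not overlap, and control replicate 1 stood above the other controls. Mmp11 fell by 0.49 ± 0.12, with an adjusted p of 0.00219 by limma. Without control replicate 1 the difference was -0.35, with an adjusted p of 0.001.

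Mmp3 and Mmp9 had differences of a like size that did not pass the test. Mmp3 is stromelysin 1, which cuts proteoglycans and activates other metalloproteinases. It measured 3.38, 3.84, 3.93, 4.34 and 4.11 with 8 Gy serum, against 3.46, 3.61, 2.69, 0.82 and 3.39 with control serum. The groups overlapped and control replicate 4 was far below the rest. The difference was 1.13 ± 0.51, with an adjusted p of 0.0786 by limma and a 95% interval of 0.06 to 2.20. It passed under quantile normalisation (1.31, adjusted p 0.046) and cyclic loess (1.32, adjusted p 0.0448). Without control replicate 4 it was 0.63, with an adjusted p of 0.241.

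Mmp9, the second gelatinase, measured 2.13, 2.19, 2.27, 2.90 and 2.04 with 8 Gy serum, against 1.66, 1.42, 1.64, 0.64 and 1.27 with control serum. No control array reached the lowest 8 Gy array. The difference was 0.98 ± 0.44, with an adjusted p of 0.0772 by limma. In a fit of the 20-day arrays alone the same difference passed, with an adjusted p of 0.0068, or 0.0333 with the replicate number as a block. It also passed in the authors' deposited table values (adjusted p 0.00714) and under normexp background correction (0.0269), and with slide as a random block the adjusted p was 0.212. Its second probe gave 0.76 ± 0.47, with an adjusted p of 0.195. The groups of that probe overlapped (lowest 1.31 with 8 Gy serum, highest 1.89 with control serum).

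Mmp23, a membrane-anchored member without the usual hemopexin domain, was 0.28 ± 0.12 higher with 8 Gy serum, with an adjusted p of 0.0538 by limma. Its arrays read 3.04, 2.91, 3.17, 2.83 and 2.79 with 8 Gy serum, against 2.76, 3.02, 2.81, 2.42 and 2.32 with control serum, and the groups overlapped. With the replicate number as a block over all 20 arrays the adjusted p was 0.0385, and over the 20-day arrays alone it was 0.0968. Mmp23 passed with larger differences under quantile normalisation (0.45, adjusted p 0.00269), cyclic loess (0.47, adjusted p 0.00175) and normexp background correction (0.59, adjusted p 0.000866). Mmp10, a stromelysin close to Mmp3, differed by 0.30 ± 0.27 with an adjusted p of 0.387. Mmp19, which cuts basement membrane proteins, differed by 0.04 ± 0.17 with a 95% interval of -0.32 to 0.40.

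Mmp12, the macrophage elastase, measured -2.95, -3.19, -2.93, -2.58 and -2.64 with 8 Gy serum, against -5.07, -3.32, -4.14, -1.94 and -3.13 with control serum. The controls spread over a wider range that enclosed every 8 Gy array. The difference was 0.67 ± 0.38, with an adjusted p of 0.16 by limma. Without control replicate 4 it was 1.06 with an adjusted p of 0.00823, and without control replicate 1 it was 0.28 with an adjusted p of 0.479. Of the 19 macrophage markers, 0 were higher and 5 lower with 8 Gy serum in the 20-day set, when 17.3% of all genes were higher and 28.8% lower. Among the lower ones, Ptprc differed by -0.61 with -0.0004 at its second probe, and Adgre1 by -0.78 with 0.11. Tyrobp, without a second tested probe, differed by -0.72. The part of the macrophage markers in the differences of Mmp9 and Mmp12 was not tested.

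**Figure D1:**
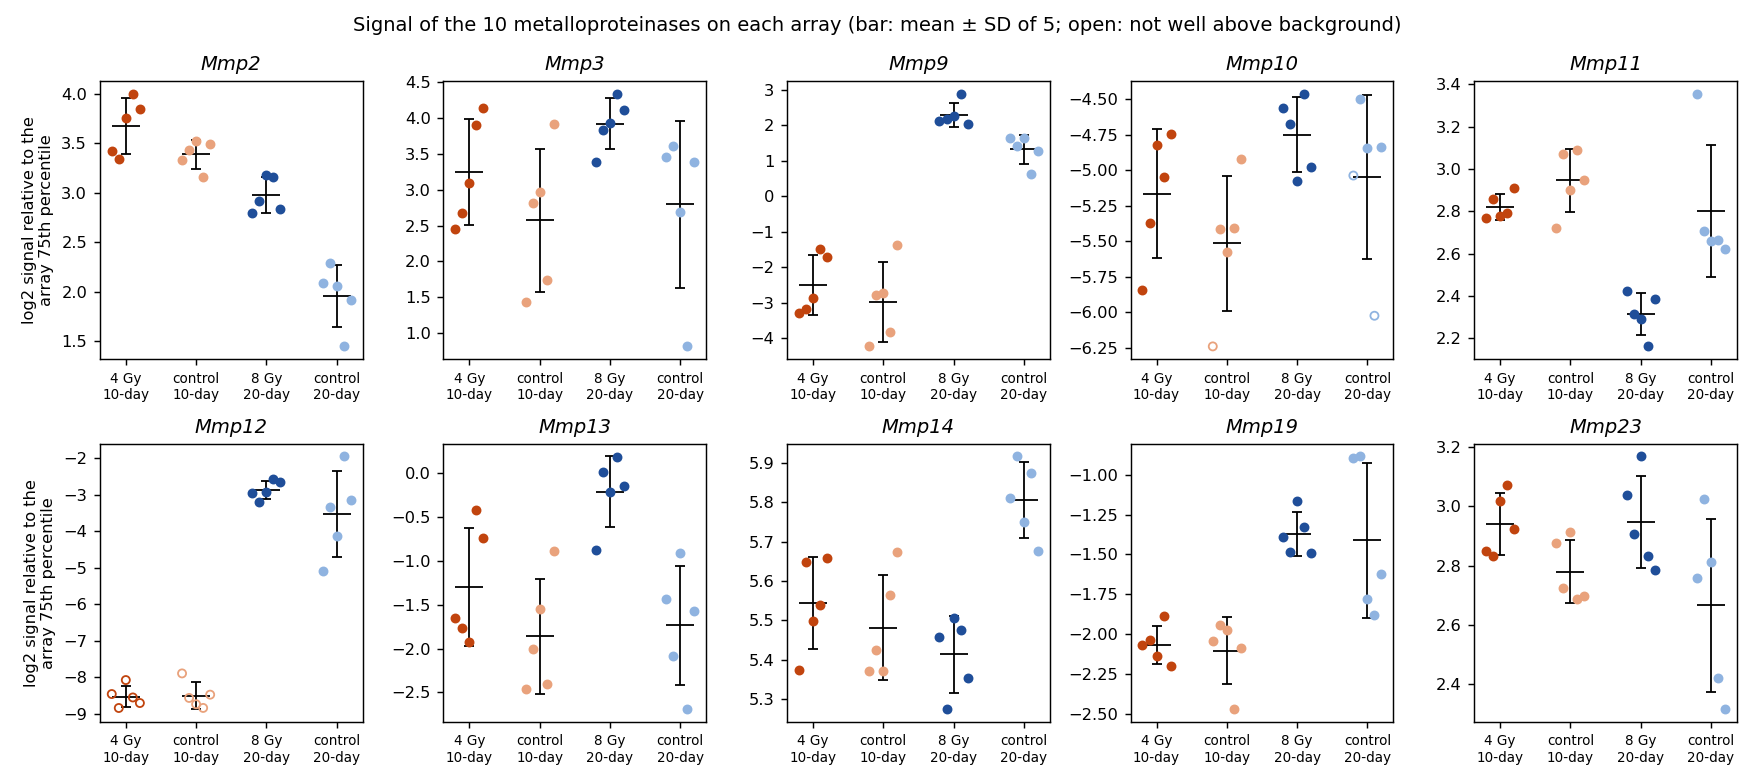
Each panel plots the log2 signal of 1 metalloproteinase relative to the array's 75th percentile, for 5 arrays in each of 4 groups; bars are mean ± SD and open points are arrays where the probe was not well above background. With 8 Gy serum Mmp2 and Mmp13 lie above, and Mmp11 below, all controls of the 20-day set, while the 10-day groups overlap in every panel.

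Mmp14 has no settled direction. It is a membrane-type enzyme that activates the Mmp2 precursor at the cell surface. Its brighter probe measured 5.46, 5.28, 5.51, 5.48 and 5.35 with 8 Gy serum, against 5.81, 5.92, 5.75, 5.87 and 5.68 with control serum. Those values do not overlap, and the difference was -0.39 ± 0.08 with an adjusted p of 0.000575 by limma. The dimmer probe measured 1.28, 1.21, 1.36, 1.17 and 1.01 with 8 Gy serum, against 0.82, 0.61, 0.88, 0.19 and 0.57 with control serum. It did not overlap either, the other way round, and differed by 0.59 ± 0.10 with an adjusted p of 0.000103. Under quantile normalisation the brighter probe differed by -0.15 and did not pass the test. Which of the probes reports the Mmp14 transcript was not tested.

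**Figure D2:**
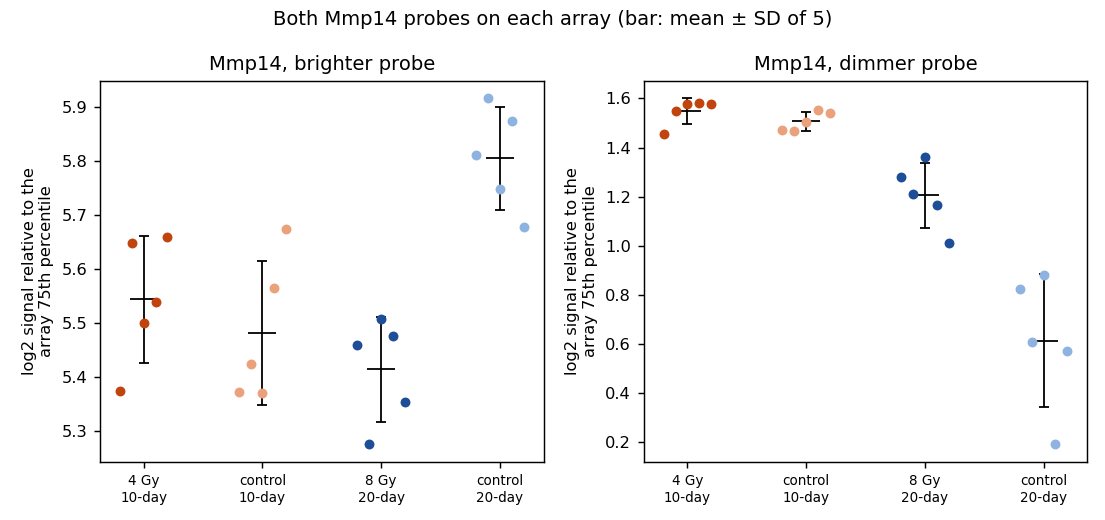
Log2 signal of both Mmp14 probes relative to the array's 75th percentile, for 5 arrays in each of 4 groups, with mean ± SD. With 8 Gy serum the brighter probe lies below all controls of the 20-day set, differing by -0.39, and the dimmer probe above all of them, differing by 0.59.

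With serum of mice irradiated at 4 Gy (10-day set) 0 of 10 members passed the limma test, 0 had an unadjusted p under 0.05, and the smallest adjusted p was 0.271. Of all genes tested 5.97% passed, 4.5% higher and 1.47% lower. These were 1208 genes, against 1 with slide as a random block. The differences lay between -0.12 and 0.68, and 8 of 10 were above 0. Mmp2 measured 3.42, 3.34, 3.76, 4.00 and 3.84 with 4 Gy serum, against 3.33, 3.43, 3.52, 3.16 and 3.49 with control serum. The 3 highest arrays all had 4 Gy serum, but the groups overlapped, and the difference was 0.29 ± 0.15 with a 95% interval of -0.03 to 0.60. Mmp3 had the largest difference, 0.68, with a 95% interval of -0.39 to 1.75. Of the 19 macrophage markers, 4 were higher and 0 lower with 4 Gy serum in the 10-day set, and 0 passed with slide as a random block.

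The 10-day slides bear on these signs. Slide 1 held 4 controls, slide 3 held 3 arrays with 4 Gy serum, and slide 2 held 2 arrays with 4 Gy serum and control replicate 5. Within slide 2 the difference was -0.11 for Mmp2, -1.34 for Mmp3, -1.87 for Mmp9, -0.69 for Mmp10 and -0.82 for Mmp13, all opposite to the difference over the whole set. Control replicate 5 was the highest control for Mmp3, Mmp9, Mmp10 and Mmp13. A fixed slide block compares the sera only within slide 2, against 1 control array. Its differences are therefore the slide 2 differences and no separate result.

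**Figure D3:**
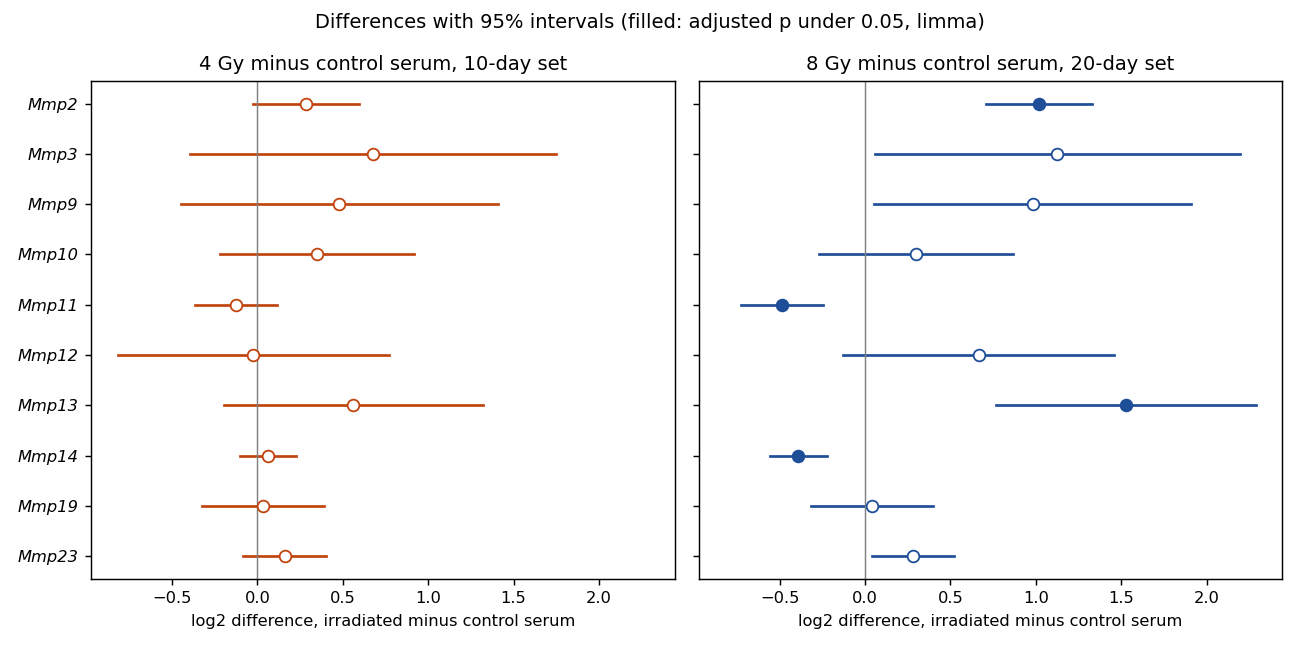
Points are the log2 difference, irradiated minus control serum, of each metalloproteinase in the 10-day set (left) and the 20-day set (right), and lines are 95% intervals; filled points passed the limma test at an adjusted p under 0.05. Mmp2, Mmp11, Mmp13 and the brighter Mmp14 probe are filled for 8 Gy serum, and none for 4 Gy serum.

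The difference between the responses was tested directly, as the 8 Gy difference minus the 4 Gy difference. Mmp2 passed, at 0.73 ± 0.21 with an adjusted p of 0.0116 by limma. Under normexp background correction Mmp2 was 0.51 with an adjusted p of 0.0535 and did not pass. The brighter Mmp14 probe passed at -0.45 ± 0.11 with an adjusted p of 0.00455, and its dimmer probe passed the other way at 0.55 ± 0.14. The brighter probe did not pass under quantile normalisation (-0.25), cyclic loess (-0.23) or with slide as a random block (-0.37). Of all genes 34.2% passed, 12.2% higher and 22.0% lower. Mmp13, at 0.97 with a 95% interval of -0.11 to 2.04, and Mmp11, at -0.36 with a 95% interval of -0.70 to -0.02, did not pass after adjustment. Dose, day, slide and scan day all differ between these responses and cannot be told apart.

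Between the sets, Mmp9 and Mmp12 were far higher in the 20-day set under both kinds of serum, Mmp19 was higher and Mmp2 lower. With control serum 5 of 10 members passed the test, 4 higher (Mmp9, Mmp12, Mmp19 and the brighter Mmp14 probe) and 1 lower, when 66.4% of all genes passed, 37.0% higher and 29.4% lower. The dimmer Mmp14 probe went the other way, at -0.89. With irradiated serum 6 of 10 passed, 4 higher (Mmp9, Mmp12, Mmp13 and Mmp19) and 2 lower (Mmp2 and Mmp11), when 58.0% of all genes passed, 29.2% higher and 28.8% lower. Both shares are near their background, and the comparisons share their groups with those above.

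Mmp12 was not well above background on any of the 10 arrays of the 10-day set and was well above it on all 10 of the 20-day set. With 8 Gy serum (20-day) it was at least 12.2-fold higher than with 4 Gy serum (10-day). With control serum it was at least 8.00-fold higher in the 20-day than in the 10-day set. Each bound sets the mean of the 20-day arrays against the lowest signal counted as well above background on the 10-day arrays. The measured differences were 5.67 and 4.98, with adjusted p-values of 3.67e-10 and 1.08e-09 by limma, and use 10-day values not well above background. Mmp12 passed the filter only through its 20-day groups, so the filter favoured these results and the p-values add no support.

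Mmp9 was well above background on all 20 arrays. In the 10-day set it measured -3.28, -3.19, -2.86, -1.48 and -1.71 with 4 Gy serum, against -4.23, -2.77, -2.72, -3.82 and -1.36 with control serum. Every 20-day array, at 0.64 or more, was above every 10-day array. The difference between sets was 4.81 ± 0.44 for irradiated serum and 4.31 ± 0.44 for control serum, with adjusted p-values of 3.58e-08 and 6.89e-08 by limma. Its second probe gave 4.57 and 4.38.

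All 19 macrophage markers were higher in the 20-day set under both kinds of serum, with a median difference of 3.85 for irradiated and 4.07 for control serum, and so were 7 of 9 osteoclast markers. Among the 3 neutrophil markers tested, S100a8 was the 1 higher under both. Spi1, Calcr, Atp6v0d2, Dcstamp and S100a8 passed the filter only through 20-day groups, so the filter favoured a rise for them. The part of the macrophage, osteoclast and neutrophil markers in the levels of Mmp9 and Mmp12 was not tested.

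**Figure D4:**
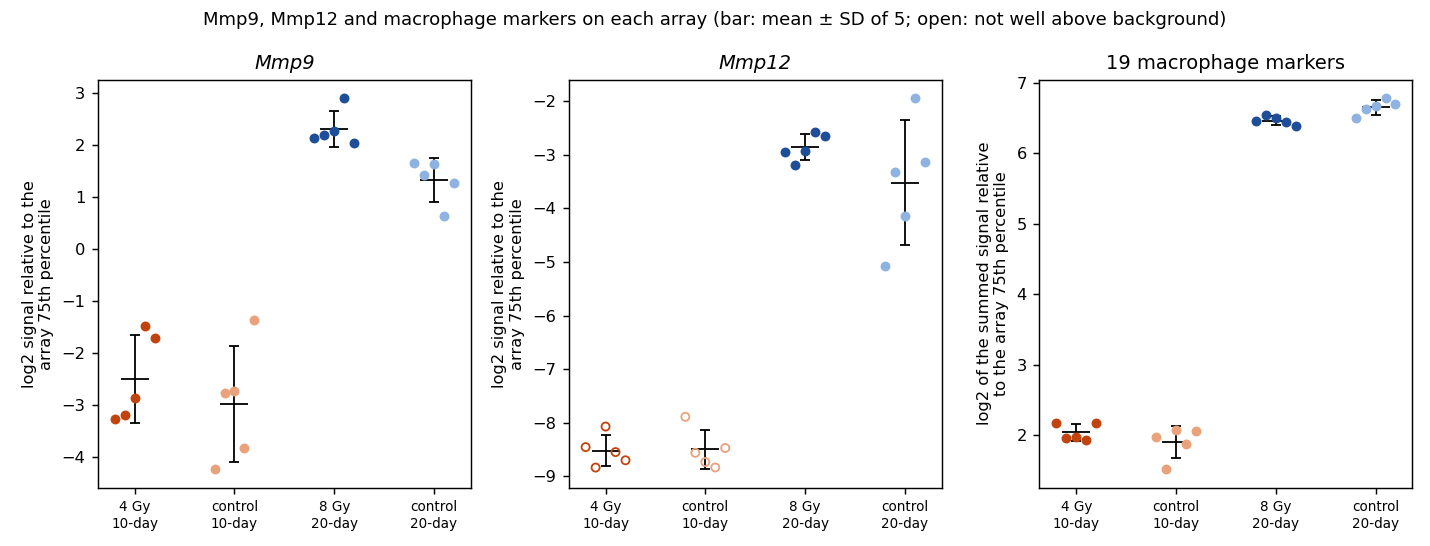
Log2 signal of Mmp9 and Mmp12, and log2 of the summed signal of 19 macrophage markers, relative to the array's 75th percentile, for 5 arrays in each of 4 groups with mean ± SD; open points were not well above background. All 3 panels have every 20-day array above every 10-day array. Within the 20-day set the brighter Mmp9 probe, shown here, has every 8 Gy array above every control, a difference that did not pass the test. The groups of its second probe overlap.

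In the 20-day set Mmp2 fell by 0.69 under irradiated serum and fell by 1.43 under control serum, with adjusted p-values of 0.000583 and 8.21e-08 by limma. Every 20-day array was below every 10-day array of the same kind of serum. Its 4 group means stood at 3.67 ± 0.28 with 4 Gy serum, 3.39 ± 0.15 with control serum of the 10-day set, 2.98 ± 0.18 with 8 Gy serum and 1.96 ± 0.32 with control serum of the 20-day set (SD, n = 5 each). The arrays with control serum of the 10-day set overlapped those with 4 Gy serum and those with 8 Gy serum (highest 3.18 with 8 Gy serum, lowest 3.16 with control serum of the 10-day set), and control serum of the 20-day set stood apart below all of them.

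Mmp19 measured -1.39, -1.49, -1.16, -1.33 and -1.49 with 8 Gy serum, against -2.07, -2.04, -2.14, -1.89 and -2.20 with 4 Gy serum. It was 0.70 higher under irradiated serum and 0.69 higher under control serum, with adjusted p-values of 0.00181 and 0.00146 by limma, and neither pair of groups overlapped. Mmp13 was 1.09 higher with 8 Gy than with 4 Gy serum, with an adjusted p of 0.015, and those groups overlapped. It differed by 0.13 between the controls, with a 95% interval of -0.63 to 0.89. Mmp11 fell by 0.51 with 8 Gy against 4 Gy serum, with an adjusted p of 0.00104. Between the controls Mmp11 differed by -0.15, and by -0.28 with an adjusted p of 0.00262 when control replicate 1 of the 20-day set was left out. Mmp10 differed by 0.46 between the controls, and by 0.71 with an adjusted p of 0.0145 without control replicate 4 of the 20-day set. Between the controls Mmp23 passed at -0.38 under quantile normalisation, -0.41 under cyclic loess and -0.54 under normexp, and Mmp11 at -0.43 under both quantile normalisation and cyclic loess. Mmp10 passed at 0.68 under cyclic loess and 0.40 under normexp. Between the irradiated groups Mmp10 passed at 0.68 under cyclic loess and 0.42 under normexp, and the brighter Mmp14 probe at -0.33 under quantile normalisation and -0.38 under cyclic loess.

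Mmp3, Mmp9 and Mmp13 varied together from array to array in the 10-day set, where the groups overlapped. Over its 10 arrays, Pearson's r between Mmp3 and Mmp9 was 0.976 and Spearman's rho 0.927, with permutation p-values of 4e-05 and 0.00026, adjusted over 28 pairs to 0.00112 and 0.00728. Without the 2 arrays farthest from the median of Mmp3, r was 0.972, and about the means of the slides it was 0.971. Mmp9 and Mmp13 had r = 0.937 (adjusted permutation p 0.0035, rho 0.842), and Mmp3 and Mmp13 had r = 0.922 (adjusted permutation p 0.00429, rho 0.818). Of the 28 pairs, 6 had an adjusted p under 0.05 and all 6 were positive. The other 3 joined Mmp2 with Mmp3, Mmp13 and Mmp23, at r of 0.796, 0.784 and 0.797, and without the 2 arrays farthest from the median of Mmp2 these were 0.651, 0.434 and 0.675. About the means of the slides they were 0.711, 0.802 and 0.392, and Spearman's rho for Mmp2 with Mmp23 had an adjusted p of 0.0595. Arrays share slides and may share cultures. The share over all pairs of genes on these arrays was not computed, so the count of 6 pairs has no background. No correlation was computed in the 20-day set, where the serum groups lay apart for some members at the probes used.

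**Figure D5:**
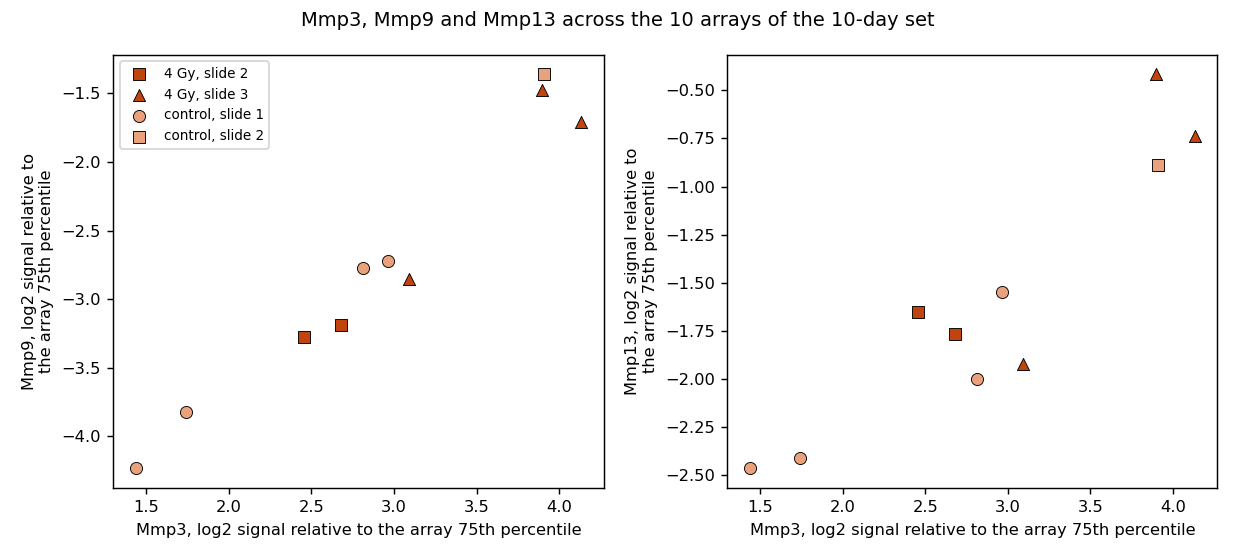
Log2 signal of Mmp9 (left) and Mmp13 (right) against that of Mmp3 on the 10 arrays of the 10-day set, relative to the array's 75th percentile; colour gives the serum and the marker shape the slide. Control replicate 5 on slide 2 and 2 arrays with 4 Gy serum on slide 3 sit at the top right of both panels, with r = 0.976 for Mmp9 and 0.922 for Mmp13.

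For the 4 members with the largest range of group means, the genes with the most similar pattern over all 20 arrays were ranked by Pearson's r among 12726 genes, as a description. All 20 arrays include the contrast between the sets, which these values share. For Mmp12 they were Srgn (0.989), Dok3 (0.986) and Arhgap25 (0.983), and for Mmp9 they were Dio2 (0.980), Cxcl16 (0.979) and Csf2rb2 (0.977). For Mmp2 they were Lbp (0.981), Pcif1 (0.976) and Scarf2 (0.973). For Mmp13 they were Ccl11 (0.876), Bcl3 (0.875) and Camp (0.866), of which Camp is on the neutrophil marker list.

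Of the remaining metalloproteinases on the array, 4 of 11 passed the filter on dim probes. With 8 Gy serum 3 of the 4 rose and 0 fell. Mmp24, a membrane-type enzyme, rose by 0.91 ± 0.27, being well above background on all 5 arrays with 8 Gy serum and on 1 of 5 with control serum, and Mmp17, which is anchored by a lipid, by 0.33 ± 0.11, with 0.98 at its second probe. Mmp15, also of the membrane type, was at least 1.22-fold higher, being well above background on 2 of 5 arrays with 8 Gy serum and on 0 with control serum. Between the sets, 3 of 4 fell with irradiated serum and 4 of 4 with control serum. Of these, Mmp15 and Mmp16 passed the filter only through their 10-day groups, so the filter favoured a fall for them. With control serum Mmp15 was at least 4.28-fold lower and Mmp16 at least 1.78-fold lower in the 20-day than in the 10-day set, and Mmp17 fell by 1.41.

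Among 14 inhibitors and activators, 2 rose and 5 fell with 8 Gy serum. Lcn2, a lipocalin that binds the Mmp9 protein in humans, rose by 3.21 ± 0.85, and Serpine2, an inhibitor of serine proteases, by 0.57 ± 0.09. Timp3 fell by 0.73 ± 0.09, the gene with the smallest adjusted p among those that fell (2.92e-06, limma). Timp4, well above background on 3 of 5 arrays with 8 Gy serum and on all 5 controls, fell by 0.96 ± 0.22. Plau, the urokinase that makes plasmin, fell by 0.55 ± 0.10, with -0.23 at its second probe. With 4 Gy serum Furin, a convertase that removes prodomains of Mmp11 and Mmp14, fell by 0.35 ± 0.08, and no other gene of the list passed. With slide as a random block Furin differed by -0.29 with an adjusted p of 0.471 by limma. Between the sets, Reck, a membrane-anchored inhibitor, fell by 0.99 under irradiated serum and fell by 0.81 under control serum, and Plaur, the urokinase receptor, rose by 0.87 and 0.59. In all, 3 rose and 4 fell under irradiated serum, and 5 rose and 6 fell under control serum.

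Among 14 matrix substrates, 5 rose and 1 fell with 8 Gy serum. Col4a2, a basement membrane collagen, rose by 1.13 ± 0.16 and by 1.26 at its second probe, and Fn1, fibronectin, by 0.53 ± 0.09, with 1.11 and 1.14 at its other probes. With 4 Gy serum Fn1 fell by 0.34 ± 0.09, with -0.20 at both other probes, and no other substrate passed. With slide as a random block Fn1 differed by -0.27 with an adjusted p of 0.534 by limma. Between the sets, 13 of 14 fell under irradiated serum and all 14 under control serum. Eln, the elastin gene, fell by 4.77 under irradiated serum and fell by 4.47 under control serum.

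Among 13 AP-1, ETS and Runx regulators, 4 rose and 3 fell with 8 Gy serum, and 0 passed with 4 Gy serum. Fosl1, a Fos-family subunit of AP-1, rose by 1.04 ± 0.19, and Jund, a Jun-family subunit, fell by 0.42 ± 0.09. Runx2, a regulator of Mmp13 in bone, rose by 0.92 ± 0.13 at its brighter probe and differed by 0.04 at the other. Ets1 had probes that disagreed, at -0.52, -0.42 and 1.21. Between the sets 1 rose and 9 fell under each kind of serum, the riser being Fosl1 with irradiated and Jund with control serum. Under both kinds 0 rose and 7 fell. Between the controls Runx2 differed by -1.91 at its brighter probe and by 1.89 at the other.

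Among 8 cytokines that induce metalloproteinases, 4 passed the filter. With 8 Gy serum Il6 rose by 0.89 ± 0.35 and Tgfb1 by 0.40 ± 0.10, with adjusted p-values of 0.0447 and 0.0028 by limma. With 4 Gy serum Csf1, a growth factor for macrophages, fell by 0.34 ± 0.09, and with slide as a random block it differed by -0.27 with an adjusted p of 0.516 by limma. Tnf was not well above background on any 10-day array and was at least 8.78-fold higher in the 20-day set under irradiated serum and at least 7.75-fold higher under control serum. It passed the filter only through its 20-day groups, so the filter favoured this rise. For these lists the share of all genes that passed, given above for each comparison, is the background.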

How the data were processed

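Gene expression was measured in 20 fibroblast RNA samples, 4 serum groups of 5 arrays, grouped and numbered from the sample titles. The deposited scanner files give the authors' processed intensity of each spot, background-subtracted and detrended within the array and not scaled between arrays. They also give median spot and background intensities and quality marks of 0 or 1. Per the file headers the software was Agilent Feature Extraction 10.5.1.1; version 11.0 is the one in the submitters' processing notes. The authors' deposited table holds log2 values centred within each set, with unstated processing. It was used as an alternative, and differences between arrays correlated with those of the scanner files at r of 0.994 or more.

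Control and outlier spots (50 to 181 per array) were left out, spots of a probe were averaged, and each array's 75th percentile was subtracted from its log2 values, with no pseudocount. Probes were named by RefSeq accession (24844 of 41174). A gene was tested where at least 1 group had its probe well above background on all 5 arrays (20226 genes, of which 12910 have a symbol and the rest are unnamed probes counted as 1 gene each). Tests used limma 3.58.1 in R 4.3.3 (lmFit, eBayes), checked on simulated data, and scipy 1.17.1 for permutations (100000). Alternatives were other scalings, normexp (offset 50, on the median intensity), other filters and probe rules, slide or replicate blocks, leaving out each array and the deposited table. Bounds replace folds where a group was not above background.

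The text names all members, up to 3 genes per list, comparison and direction by smallest p, though not every such gene, and the genes most like 4 members. List counts use the brightest probe of a gene. Members and lists were chosen with earlier results of these data known. Same-numbered arrays of the 20-day set deviated together (r 0.140 to 0.407 over all 5 pairs, group means removed), with numbers that also follow slides, so the blocked value is given where it changes a call. In the 10-day set same-numbered pairs had r of -0.05 to 0.18 with a median of 0.14, against a median of -0.05 between different numbers.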

Additional observations from a re-analysis of the deposited data

Results flagged for a closer look

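In 3 of 40 groups of 5 arrays 1 array stood far from the other 4, where chance alone gives about 1 in 20. Mmp9 read 2.90 on replicate 4 of 8 Gy serum, above its group. Mmp11 read 3.36 on replicate 1 of control serum of the 20-day set, above its group, and without that array the 8 Gy difference was -0.35 in place of -0.49. Mmp19 read -2.47 on replicate 4 of control serum of the 10-day set, below its group.

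The responses to irradiated serum differed between the sets for Mmp2, by 0.73 (8 Gy difference minus 4 Gy difference, adjusted p 0.0116, limma). They differed for the brighter probe of Mmp14 by -0.45 (adjusted p 0.00455), and its dimmer probe gave 0.55.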

How the results depend on the processing

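Of 1116 values recomputed under alternatives, 1019 kept their direction and side of the threshold and 49 changed sign. Under all settings run, 3 to 6 members passed with 8 Gy serum and 0 with 4 Gy serum, and the 8 Gy differences of Mmp2, Mmp11 and Mmp13 passed each time. Under normexp the difference between the responses passed for Mmp11, Mmp14 and Mmp23 and not for Mmp2. It had 1 member in place of 2 under quantile normalisation, cyclic loess, the median over probes and slide as a random block. For the 8 Gy difference of Mmp14 the median over probes gave 0.10 and the dimmer probe 0.59, and for the difference between the responses 0.049 and 0.55. Between the controls of the sets Mmp14 was -0.083 under quantile normalisation, -0.15 under cyclic loess, -0.28 as a median and -0.89 at the dimmer probe. In the 10-day set a fixed slide block turned Mmp2 to -0.11, Mmp3 to -1.34, Mmp9 to -1.87, Mmp10 to -0.69, Mmp13 to -0.82 and Mmp14 to -0.16, and a random one Mmp3 to -0.0044, Mmp9 to -0.32 and Mmp14 to -0.015. The other changes of sign were in members that did not pass. In the 10-day set they were Mmp12 (0.32 under normexp), Mmp14 (-0.012 under median scaling) and Mmp19 (-0.038 under median scaling, -0.010 under quantile). With 8 Gy serum Mmp19 was -0.10, -0.037 and -0.014 under median scaling, quantile and cyclic loess. Between the controls Mmp3 was -0.043, -0.0975 and -0.24 under quantile, cyclic loess and random slide block, Mmp13 -0.18 under the last and Mmp23 0.016 under median scaling. Between the irradiated groups Mmp23 was -0.13, -0.12 and -0.0028 under quantile, cyclic loess and random slide block. Leaving out 1 array at a time gave -0.14 to 0.13 for Mmp12 for 4 Gy serum, -0.056 to 0.075 for Mmp19 for 4 Gy serum, -0.078 to 0.17 for Mmp19 for 8 Gy serum, -0.064 to 0.71 for Mmp3 between the controls, -0.083 to 0.37 for Mmp13 between the controls and -0.048 to 0.047 for Mmp23 between the irradiated groups. The cause of these changes was not tested. The median of all genes with 8 Gy serum was -0.24 under median scaling, against -0.09, and between the controls it was 0.20 under median scaling and 0.22 under normexp, against 0.07. With the replicate number as a block over all 20 arrays 5 members passed with 8 Gy serum, Mmp23 (0.28) being added, and with the block over the 20-day arrays alone, a fit chosen after seeing the data, Mmp9 (0.98) was added instead. Mmp9 also passed over the 20-day arrays without the block. The block changed no other call. Signal over background limits Mmp12 in the 10-day set and Mmp10 in both control groups, where 4 of 5 (10-day) and 3 of 5 (20-day) arrays were above it.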
